A study of Homo sapiens with 6 samples.

Results

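AGER and the genes that work most closely with it were followed in MDA-MB-231 cells kept for 72 h in 2 µM Azeliragon or in the vehicle DMSO. The set holds 10 genes of the 58735 names in the deposited count table, chosen by name. They are the receptor AGER, the ligand genes HMGB1, HMGB2, HMGB3 and APP, the cytoplasmic partner DIAPH1, the adaptors MYD88 and TIRAP, and the Toll-like receptors TLR2 and TLR4. Each name had 1 entry in the table, and all 10 genes passed the filter on low counts. MDA-MB-231 is an established line of human triple-negative breast cancer that has mesenchymal traits. Azeliragon is a small molecule that blocks RAGE, a receptor for sugar-modified (glycated) proteins. The Azeliragon group and the DMSO group had 3 libraries of polyadenylated RNA each, lettered a, b and c, all from this 1 line, and the labels do not state whether a letter marks a separate culture. The p-values therefore rest on the variation among these libraries alone, and that variation may be technical.

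RAGE, the product of AGER, is a cell-surface receptor of the immunoglobulin superfamily that is best known for its abundance in alveolar epithelium of the lung. It binds proteins modified by sugars, proteins of the S100 family, the chromatin protein HMGB1 once it has left the cell, and amyloid-beta peptides cut from the product of APP. Its short cytoplasmic tail has no enzyme activity and signals through partners such as the formin DIAPH1, and the signal reaches the NF-kB transcription factors. HMGB1 is also sensed by TLR2 and TLR4, whose cytoplasmic TIR domains recruit TIRAP and MYD88.

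Sequence upstream of transcription starts is shown for the receptor, for the ligand genes HMGB1 and HMGB3, and for DIAPH1, the gene of the set with the smallest p-value. Each line runs 5′ to 3′ on the strand of the gene and covers 200 bases, from 250 to 51 bases before a RefSeq start. HMGB1 has 3 such starts in the table and HMGB3 has 2, and 1 of each is shown, at which a start of GENCODE transcripts also lies within 50 bases. This does not single out the HMGB1 start shown, since another of its starts, at 30617597, is also where the GENCODE gene begins. Capitals mark CCAAT and GGGCGG on either strand (ATTGG and CCGCCC are their reverse complements), and where GGGCGG matches overlap they run together. The regions lie at chr6:32184304-32184503 on the minus strand for AGER, chr13:30465987-30466186 on the minus strand for HMGB1, chrX:150983085-150983284 on the plus strand for HMGB3 and chr5:141619051-141619250 on the minus strand for DIAPH1 (GRCh38.p14).
AGER: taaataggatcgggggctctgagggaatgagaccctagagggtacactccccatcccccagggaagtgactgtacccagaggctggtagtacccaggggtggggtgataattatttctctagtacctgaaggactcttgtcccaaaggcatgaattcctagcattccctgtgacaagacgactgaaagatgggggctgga
HMGB1: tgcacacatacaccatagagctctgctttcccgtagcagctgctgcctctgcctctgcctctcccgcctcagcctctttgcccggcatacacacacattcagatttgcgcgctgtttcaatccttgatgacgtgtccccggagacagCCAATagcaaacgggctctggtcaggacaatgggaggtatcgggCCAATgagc
HMGB3: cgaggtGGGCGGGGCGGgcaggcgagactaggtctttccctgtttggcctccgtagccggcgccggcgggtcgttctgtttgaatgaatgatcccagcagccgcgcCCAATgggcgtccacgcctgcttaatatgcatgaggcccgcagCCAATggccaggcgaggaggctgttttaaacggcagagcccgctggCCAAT
DIAPH1: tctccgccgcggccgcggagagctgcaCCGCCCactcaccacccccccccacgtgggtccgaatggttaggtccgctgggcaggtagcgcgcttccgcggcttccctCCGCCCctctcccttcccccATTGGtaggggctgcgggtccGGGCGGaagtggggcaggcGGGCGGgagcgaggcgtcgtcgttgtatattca
The AGER window held neither motif. The windows shown held 2 CCAAT matches for HMGB1, 3 for HMGB3 and 1 for DIAPH1, and 27.4% of the 35116 promoter windows of this length in the RefSeq table held at least 1. GGGCGG occurred 2 times in the HMGB3 window shown, 4 times in the DIAPH1 window and in 35.0% of all windows. The windows not shown differed from these. Of the other HMGB1 windows, 1 held 1 CCAAT and 5 GGGCGG matches and the next 0 and 2, and the other HMGB3 window held 0 CCAAT and 7 GGGCGG matches. No window of any of the 8 genes with an entry held TATAAA or the kappaB consensus searched on both strands, which were found in 7.6% and 4.3% of all windows. Such a match is a description of the letters and not of a factor's binding.

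The libraries held between 41455979 and 44313584 counts. On the first principal component, with 45.4% of the variance, the Azeliragon libraries lay at 13.1 to 16.5, DMSO b and c at -19.9 and -24.1, and DMSO a stood between them at -0.93. Results below are therefore also given without DMSO a where this ends or makes a call. DMSO a was picked from these same data, as the DMSO library nearest the Azeliragon libraries. Leaving it out favours calls, so adjusted p-values without DMSO a are a description and not evidence of a difference. The 6 markers of the mesenchymal line were all expressed, with a summed level of 6380 to 6430 CPM in Azeliragon libraries and 6120 to 6220 CPM in DMSO libraries. CPM, the usual measure of counts relative to the library total, are scaled here by the TMM method. The 8 markers of luminal breast epithelium summed to 298 to 312 CPM in Azeliragon libraries and 307 to 341 CPM in DMSO libraries, most of it from the keratin KRT19 and the receptor kinase ERBB2. Of these 8, the epithelial cadherin CDH1 had 1 read in Azeliragon libraries and 0 reads in DMSO libraries, and the progesterone receptor gene PGR had 0 in both. The 4 endothelial markers summed to 0.605 to 0.844 CPM in Azeliragon libraries and 0.324 to 0.718 CPM in DMSO libraries. Of 7 leukocyte markers, CD3E was at 0 in all libraries and PTPRC had 0 reads in Azeliragon libraries and 3 reads in DMSO libraries. The summed leukocyte level was 1.4 to 2.03 CPM in Azeliragon libraries and 3.73 to 4.52 CPM in DMSO libraries, most of it from CSF1R. In the edgeR test described below CSF1R was called lower with Azeliragon (log2 fold change -1.39, adjusted p = 0.00185). The mesenchymal marker AXL, named after its values were seen, was called higher (0.26, adjusted p = 0.0297 in the same test). No other marker was called, and 6.27% of all genes tested were. Calls of these markers in other settings are not given here. The part of the luminal, endothelial and leukocyte levels in the results below was not tested. Of the 5 markers of lung alveolar type 1 cells, where AGER is known to be high, HOPX, PDPN and SFTPC had no reads, AQP5 had 3 reads in Azeliragon libraries and 33 reads in DMSO libraries, and CAV1, which is also a marker of the line, had 577 ± 30 CPM with Azeliragon and 659 ± 22 CPM in DMSO (SD, n = 3 each).

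Across the 10 genes the fitted levels with Azeliragon differed from those in DMSO by 1.02-fold (TLR4) to 1.20-fold (TLR2), and no gene passed the threshold. The test was edgeR's quasi-likelihood test over 16081 genes, and an adjusted p (Benjamini-Hochberg) under 0.05 was the threshold. It called 0 of the 10 genes, and 6.27% of all genes tested (2.75% higher and 3.53% lower with Azeliragon). DESeq2 and limma-voom also called 0 of the 10. An unadjusted p under 0.05 was reached by 2 of the 10, HMGB1 and DIAPH1, and by 20.4% of all genes tested. The median log2 fold change of the 10 was -0.09, and that of all genes tested was -0.0040. The median size of the log2 fold change, whatever its sign, was 0.124 for the 10 and 0.150 for all genes tested. For 9 of the 10 genes the whole 95% interval of the fold change lay within 1.5-fold in either direction, and TLR2 was the exception. In such bulk RNA a change in the number of cells that carry a transcript and a change in the RNA per cell cannot be told apart.

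**Figure D1:**
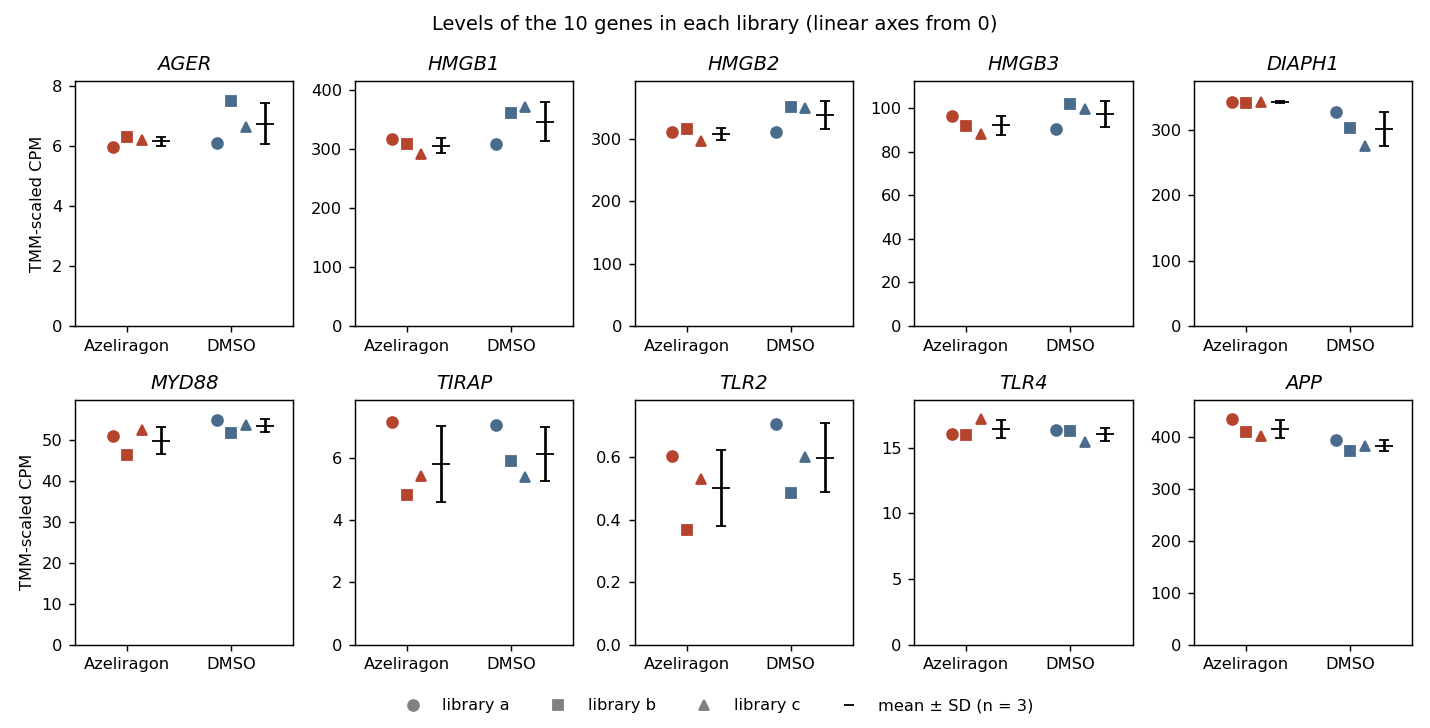
TMM-scaled CPM (vertical axes, linear, from 0) of each of the 10 genes in the 3 Azeliragon and the 3 DMSO libraries, with symbols for library letters and the mean ± SD beside them. DIAPH1 and APP have groups that do not overlap, and for AGER, HMGB1, HMGB2 and HMGB3 the library DMSO a lies among the Azeliragon libraries.

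The receptor gene AGER was weakly expressed in both conditions. It lies on the minus strand of chromosome 6, from 32180968 to 32184324 (GRCh38, GENCODE 29), and no annotated gene overlaps it. AGER had 257, 274 and 257 reads in Azeliragon a, b and c, against 276, 323 and 286 reads in DMSO a, b and c. Its levels were 5.98, 6.28 and 6.20 CPM in the Azeliragon libraries and 6.11, 7.48 and 6.63 CPM in the DMSO libraries. The Azeliragon libraries were tightly grouped, and DMSO a lay among them while DMSO b and c lay above. This gave a log2 fold change of -0.13 (SE 0.12, 95% interval -0.40 to 0.13; edgeR adjusted p = 0.594). The interval therefore spans from 0.760 to 1.10 times the DMSO level. AGER ranked at the 39.6th percentile of mean CPM among genes tested. Its flanking protein-coding genes RNF5 and PBX2 had log2 fold changes of -0.09 each (edgeR adjusted p = 0.508 and 0.513). The genes whose log2 CPM followed AGER most closely over the 6 libraries were SLX4IP, NIPAL2 and ARMC5, with Pearson correlations of 0.984, 0.984 and 0.983. In all, 31 of 16080 genes exceeded 0.95, and these points share their libraries and depth.

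HMGB1 codes for an abundant DNA-bending protein of the nucleus that acts as an alarm signal outside the cell. Its locus is on the minus strand of chromosome 13, from 30456704 to 30617597. HMGB1 stood at 317, 307 and 292 CPM in Azeliragon a, b and c, against 308, 360 and 370 CPM in DMSO a, b and c. The groups overlapped through DMSO a alone, while DMSO b and c were above every Azeliragon library. The means were 305 ± 13 CPM with Azeliragon and 346 ± 34 CPM in DMSO (SD, n = 3 each), a log2 fold change of -0.18 (SE 0.08, 95% interval -0.34 to -0.01). This did not pass (edgeR adjusted p = 0.203). Without DMSO a, HMGB1 was called lower with a log2 fold change of -0.26 (edgeR adjusted p = 0.000299).

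HMGB2, a relative of HMGB1 that is abundant in dividing cells, showed a like arrangement of libraries. Its locus is on the minus strand of chromosome 4, from 173331695 to 173335125. HMGB2 stood at 310, 315 and 296 CPM in the Azeliragon libraries a, b and c, against 311, 351 and 350 CPM in DMSO a, b and c. As for HMGB1, DMSO a fell among the Azeliragon libraries and the other DMSO libraries stood above them. The difference was -0.13 on the log2 scale (SE 0.07, 95% interval -0.28 to 0.01; edgeR adjusted p = 0.280). Without DMSO a HMGB2 was called lower, at -0.19 (edgeR adjusted p = 0.00451).

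HMGB3, the X-linked member of the family, spans 150980509 to 150990775 on the plus strand. It had 96.6, 91.9 and 88.1 CPM in Azeliragon a, b and c and 90.5, 102 and 99.8 CPM in DMSO a, b and c. The groups overlapped, again through DMSO a. Its log2 fold change was -0.08 (SE 0.07, 95% interval -0.23 to 0.07; edgeR adjusted p = 0.574). HMGB3 was not called without DMSO a either (edgeR adjusted p = 0.10). The summed level of the 3 HMGB genes was 723, 715 and 676 CPM in the Azeliragon libraries and 709, 813 and 819 CPM in the DMSO libraries. HMGB1 took 43.0% to 43.8% of these reads with Azeliragon and 43.4% to 45.2% in DMSO, so the balance within the family differed by at most a few percentage points between any libraries.

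HMGB1 has many processed pseudogenes in the genome, and reads may be split between them and the gene. The table listed 48 names of HMGB1 pseudogenes, of which 10 had reads, and their reads amounted to 11.3% of those of HMGB1. The highest was HMGB1P6, with 20.2, 21.9 and 19.4 CPM in Azeliragon a, b and c and 23.0, 26.5 and 26.8 CPM in DMSO a, b and c. Its groups did not overlap, as was so for 25.3% of all genes tested, and it did not pass (log2 fold change -0.31, SE 0.09; edgeR adjusted p = 0.0721). The HMGB1 count is uncertain for this reason. HMGB3 had 29 such names, with 81 reads in all or 0.329% of its own, and HMGB2 had 1 with 11 reads.

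APP, the amyloid precursor, is a membrane protein of many tissues whose cleavage yields a peptide that RAGE binds. Its locus is on the minus strand of chromosome 21, from 25880550 to 26171128. APP had 434, 409 and 402 CPM in Azeliragon a, b and c, against 394, 372 and 382 CPM in DMSO a, b and c. Every Azeliragon library was above every DMSO library. The log2 fold change was 0.12 (SE 0.06, 95% interval -0.01 to 0.25; edgeR adjusted p = 0.30). Without DMSO a, APP was called higher at 0.14 (edgeR adjusted p = 0.0382).

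DIAPH1 codes for a formin, a protein that nucleates and elongates actin filaments and that binds the RAGE tail. Its locus is on the minus strand of chromosome 5, from 141515016 to 141619055. DIAPH1 stood at 343, 341 and 343 CPM in Azeliragon a, b and c, against 327, 303 and 276 CPM in DMSO a, b and c. The Azeliragon libraries lay within a few CPM of each other and above the DMSO libraries, which were spread more widely. The means were 342 ± 1.2 CPM with Azeliragon and 302 ± 26 CPM in DMSO (SD, n = 3 each). The resulting log2 fold change of 0.18 (SE 0.07, 95% interval 0.03 to 0.33) did not pass (edgeR adjusted p = 0.160). Without DMSO a DIAPH1 was called higher, at 0.24 (edgeR adjusted p = 0.000719). Groups failed to overlap for 2 of the 10 genes, DIAPH1 and APP, and for 25.3% of all genes tested.

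Leaving out DMSO a thus called 4 of the 10 genes, HMGB1 and HMGB2 lower and DIAPH1 and APP higher with Azeliragon. In the same set of 5 libraries 23.7% of all genes tested were called, 12.9% higher and 10.8% lower with Azeliragon. With the trend of each library on GC content and length also removed, a combination tried once the data had been seen, 5 of the 10 genes and 23.2% of all genes were called, and the fifth gene was HMGB3. Without any other single library 0 of the 10 were called, and the lowest adjusted p of any of them was then 0.344 (HMGB1, edgeR). Over all genes 3916 were called without DMSO a, against 445 to 819 without any other single library. The calls without DMSO a, a library picked from these data, show how far the result turns on 1 library.

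**Figure D2:**
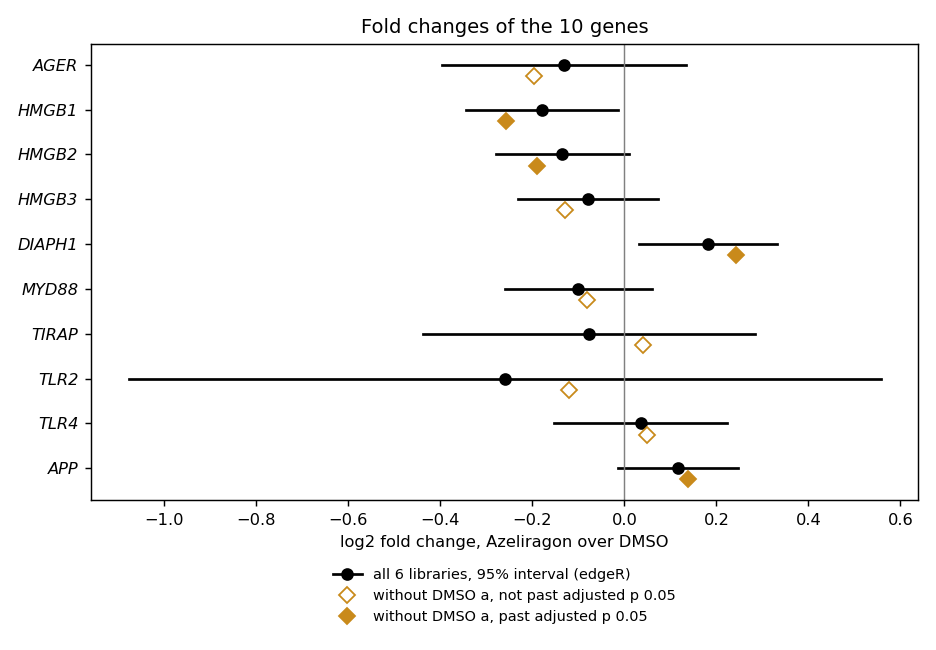
Log2 fold change of Azeliragon over DMSO (horizontal axis) for each gene, with black points and 95% intervals from all 6 libraries and diamonds for the fit without DMSO a, filled where past an adjusted p of 0.05. The intervals of HMGB1 and DIAPH1 exclude 0 before adjustment, TLR2 has the widest interval, and 4 diamonds are filled.

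MYD88, the adaptor shared by most Toll-like receptors and the interleukin-1 receptors, lies on the plus strand of chromosome 3, from 38138478 to 38143022. It had 50.9, 46.2 and 52.3 CPM in Azeliragon a, b and c and 54.8, 51.7 and 53.6 CPM in DMSO a, b and c. The groups overlapped by a small margin. MYD88 had a log2 fold change of -0.10 (SE 0.07, 95% interval -0.26 to 0.06; edgeR adjusted p = 0.485).

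TIRAP bridges MYD88 to TLR2 and TLR4 at the membrane and lies on the plus strand of chromosome 11, from 126283065 to 126298845. It had 308, 210 and 225 reads in Azeliragon a, b and c, against 319, 255 and 232 reads in DMSO a, b and c. The levels were 7.17, 4.82 and 5.43 CPM with Azeliragon and 7.07, 5.91 and 5.38 CPM in DMSO. In each condition library a was the highest, and the groups overlapped fully. Its log2 fold change was -0.08 (SE 0.17, 95% interval -0.44 to 0.28; edgeR adjusted p = 0.846), and its sign depended on single libraries. The TIRAP count is uncertain, since the antisense gene AP001318.2, with 18 to 45 reads with Azeliragon and 33 to 48 in DMSO, shares exon sequence with it and the counting may or may not have used strand.

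TLR4, the receptor of bacterial lipopolysaccharide, was the more abundant of the Toll-like receptors in the set and lies on the plus strand of chromosome 9, from 117704175 to 117724730. It had 16.05, 15.98 and 17.2 CPM in Azeliragon a, b and c, against 16.3, 16.3 and 15.4 CPM in DMSO a, b and c. The groups overlapped, and the log2 fold change was 0.04 (SE 0.09, 95% interval -0.15 to 0.22; edgeR adjusted p = 0.867). Once the trend of each library on GC content and length was removed its sign turned, to -0.09, still without passing. An annotated gene on the same strand, listed at 0 reads, shares exons with TLR4, so reads may have been left out of the TLR4 count. TLR2, the receptor of bacterial lipoproteins, was close to the limit of detection. It lies on the plus strand of chromosome 4, from 153684070 to 153705702, and had 26, 16 and 22 reads in Azeliragon a, b and c, against 32, 21 and 26 reads in DMSO a, b and c. At this depth 1 read is worth 0.0222 to 0.0241 CPM. The log2 fold change of TLR2, -0.26, had an SE of 0.37 and a 95% interval of -1.08 to 0.56 (edgeR adjusted p = 0.752), which reaches from 0.474 to 1.47 times the DMSO level.

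Levels were compared between genes per kilobase of annotated exon, on the same TMM-scaled CPM. HMGB2 was the highest at 111 ± 3.6 CPM per kb with Azeliragon and 122 ± 8.1 in DMSO (SD, n = 3 each). APP followed at 65.7 ± 2.6 with Azeliragon and 60.6 ± 1.7 in DMSO. HMGB1 and DIAPH1 came next and could not be ordered, at 37.8 to 47.9 and 37.4 to 46.5 CPM per kb over the 6 libraries. HMGB3 lay at 22.2 to 25.7 and MYD88 at 11.6 to 13.7. The receptor AGER, at 2.88 to 3.60 CPM per kb, was below all its partners except TIRAP (1.34 to 1.99), TLR4 (1.16 to 1.29) and TLR2 (0.0703 to 0.136). Apart from HMGB1 and DIAPH1, the ranges of neighbours in this order did not overlap. The lengths used are the union of all annotated exons, and the order by mean level over all libraries was the same with the longest transcript of each gene, except that HMGB1 then stood above DIAPH1.

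**Figure D3:**
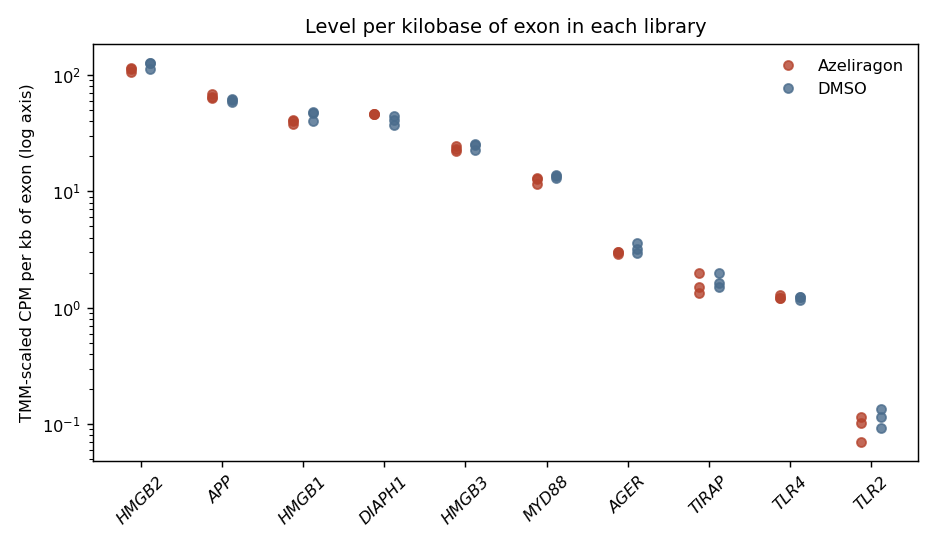
TMM-scaled CPM per kilobase of annotated exon (vertical log axis) for the 10 genes in order of their DMSO mean, with 3 points per condition. HMGB2 is the highest at 106.7 to 126.5, AGER lies at 2.88 to 3.60 and TLR2 below 0.14.

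The calcium-binding S100 proteins form the other large class of RAGE ligands. In a list of 15 S100 genes 9 were tested, of which 6 fell and none rose, with a list median of -0.37. Counts of this and the following lists stand against 6.27% of all genes called in edgeR with all libraries (2.75% higher and 3.53% lower), 23.7% without DMSO a, 8.84% in DESeq2, 5.78% without a filter on low counts and 10.4% with the trend of each library on GC content and length removed. S100A2, S100A4, S100A6 and S100A16 had log2 fold changes of -1.11, -1.02, -0.52 and -0.35, while S100A11 and S100A13 did not pass, at -0.24 and -0.37. Both of the latter were called lower without DMSO a and without a filter on low counts. S100A13 was also called lower by DESeq2 and with the GC and length trend removed. The calls of S100A2 and S100A4 were made in each of the 6 sets that lacked 1 library. S100A6 did not pass when any 1 of the Azeliragon libraries was missing (adjusted p at most 0.0532 in edgeR). S100A16 passed when DMSO a or DMSO c was missing and in no other such set (adjusted p at most 0.0989 in edgeR). Not every product of the list is known to bind RAGE. Without Azeliragon a or Azeliragon c 2 of these genes passed, without Azeliragon b 3 and without DMSO a 8. Among 8 other HMG chromatin proteins 7 were tested and 0 passed in edgeR, although 4 had an unadjusted p under 0.05, as had 20.4% of all genes tested. The number called depended on the setting, and the genes it turned on were chosen after their values were seen. HMGA2 alone was called, as higher, by limma-voom and with RLE factors in place of TMM, where 1027 and 1015 of 16081 genes were called. HMGA2 was called higher and HMGN3 lower by DESeq2. HMGN2 joined them as lower without a filter on low counts and without DMSO a. HMGA1 joined as higher, for 4 calls, with the GC and length trend removed. The abundant HMGA1 had a log2 fold change of 0.14 and HMGN2 one of -0.24 (edgeR adjusted p = 0.230 and 0.0779).

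Of 14 other proteins that bind glycated proteins or remove their precursors, 10 were tested, 1 rose and 1 fell. LGALS3, a galectin that binds glycated proteins, fell 1.27-fold to 90.1 ± 4.1 CPM with Azeliragon, against 114 ± 14 CPM in DMSO (SD, n = 3 each; edgeR adjusted p = 0.0323). SCARB1, a scavenger receptor for lipoproteins, rose 1.18-fold (edgeR adjusted p = 0.0351). Each of these calls held only in the set of 5 libraries that lacked DMSO a, where 2 genes of the list rose and 2 fell, and it was lost in the other 5 sets (adjusted p up to 0.194 in edgeR). The abundant PRKCSH and DDOST had log2 fold changes of -0.01 and -0.03 and did not pass.

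None of the 11 tested proteases that shed RAGE or cut APP passed in edgeR or DESeq2. An unadjusted p under 0.05 in edgeR was reached by 1 of them and by 20.4% of all genes tested. With the GC and length trend removed 2 were called lower, ADAM10 and BACE2, and without DMSO a PSENEN alone was called lower. BACE2 and PSENEN, parts of APP cleavage, were named after their values were seen. ADAM10, the main sheddase of RAGE, had 48.1 ± 2.5 CPM with Azeliragon and 54.5 ± 3.7 CPM in DMSO (SD, n = 3 each; log2 fold change -0.18, edgeR adjusted p = 0.206); it was chosen after its values were seen. The most abundant were APH1A and NCSTN, subunits of gamma-secretase, with log2 fold changes of -0.01 and -0.09. MMP9, which was too low to test and was also chosen after its values were seen, had 1, 0 and 0 reads in Azeliragon a, b and c and 1, 9 and 11 reads in DMSO a, b and c. Of 10 relatives and binding partners of APP, 2 fell and none rose. ITM2B, a membrane protein that binds APP, fell 1.32-fold to 95.3 ± 2.6 CPM with Azeliragon, against 126 ± 9.6 CPM in DMSO (SD, n = 3 each; edgeR adjusted p = 0.00471). APLP1, an APP relative, fell 1.29-fold (edgeR adjusted p = 0.0412). The APLP1 call held only when DMSO a was the library left out, with edgeR adjusted p up to 0.195, and the ITM2B call was lost without Azeliragon c (0.0510 in the same test). Without DMSO a 2 genes of this list rose and 2 fell. The abundant APLP2 had a log2 fold change of -0.10 and LRP1 one of -0.07. LRP1 had 179, 167 and 188 CPM in Azeliragon a, b and c and 249, 153 and 160 CPM in DMSO a, b and c. It was called higher without DMSO a, but not once the GC and length trend was also removed.

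The Toll-like receptors outside the set were scarce, as TLR2 was. Mean levels of TLR3, TLR5 and TLR6 were above that of TLR2 in both conditions. TLR1, TLR3, TLR5 and TLR6 were tested, with means of 0.335 to 2.38 CPM with Azeliragon and 0.348 to 2.74 CPM in DMSO, whereas TLR7, TLR8, TLR9 and TLR10 had at most 4 reads per condition. In the list of 18 receptors and co-receptors 12 were tested, 2 fell and none rose, with a median log2 fold change of -0.20. SIGIRR, a receptor that dampens TLR and interleukin-1 signalling, fell 1.64-fold to 7.09 ± 1.3 CPM with Azeliragon, against 11.7 ± 2.0 CPM in DMSO (SD, n = 3 each; edgeR adjusted p = 0.0162). HSP90B1, a chaperone that folds Toll-like receptors, fell 1.26-fold (edgeR adjusted p = 0.0306). The SIGIRR call was lost without DMSO b, Azeliragon b or c (adjusted p up to 0.0815 in edgeR), and the HSP90B1 call without DMSO b or any Azeliragon library (up to 0.174). CNPY3 and UNC93B1, the other abundant members, did not pass, at -0.08 and -0.19. Without DMSO a 3 genes of the list fell, UNC93B1 being the third, and none rose. The co-receptors of TLR4, named after their values were seen, did not overlap between groups but did not pass. Groups failed to overlap for 25.3% of all genes tested. Both had few reads, 20 to 79 per library, and LY96 was higher and CD14 lower with Azeliragon. LY96 had 1.84, 1.19 and 1.21 CPM in Azeliragon a, b and c and 1.06, 0.463 and 0.9502 CPM in DMSO a, b and c (edgeR adjusted p = 0.227). CD14 had 0.907, 1.06 and 0.748 CPM in Azeliragon a, b and c and 1.15, 1.48 and 1.44 CPM in DMSO a, b and c (edgeR adjusted p = 0.247).

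Downstream of MYD88, 0 of 18 tested adaptors, kinases and ubiquitin enzymes passed in edgeR. An unadjusted p under 0.05 was reached by 3 of them and by 20.4% of all genes tested. IRAK1, the kinase recruited by MYD88, had 750 ± 12 CPM with Azeliragon and 656 ± 8.8 CPM in DMSO (SD, n = 3 each; log2 fold change 0.19, edgeR adjusted p = 0.0631). It was called higher by DESeq2 and with the GC and length trend removed, as the only 1 of the 18. The ubiquitin-conjugating enzyme gene UBE2N, also abundant, had a log2 fold change of 0.02. Without DMSO a 5 of these genes rose, IRAK1 among them, and 1 fell. Among 12 core NF-kB genes 1 fell and none rose. It was NFKBIA, the NF-kB inhibitor that is itself an NF-kB target, which fell 1.29-fold to 65.9 ± 2.4 CPM with Azeliragon, against 85.1 ± 8.6 CPM in DMSO (SD, n = 3 each; edgeR adjusted p = 0.0156). The abundant RELA and NFKB2 did not pass, at log2 fold changes of 0.20 and -0.16, and RELA was called higher by DESeq2 and with the GC and length trend removed. The NFKBIA call was lost when DMSO b or 1 of the Azeliragon libraries was left out (adjusted p up to 0.105 in edgeR). Without DMSO a 3 NF-kB genes rose, RELA among them, and 2 fell, NFKBIA and NFKB2.

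**Figure D4:**
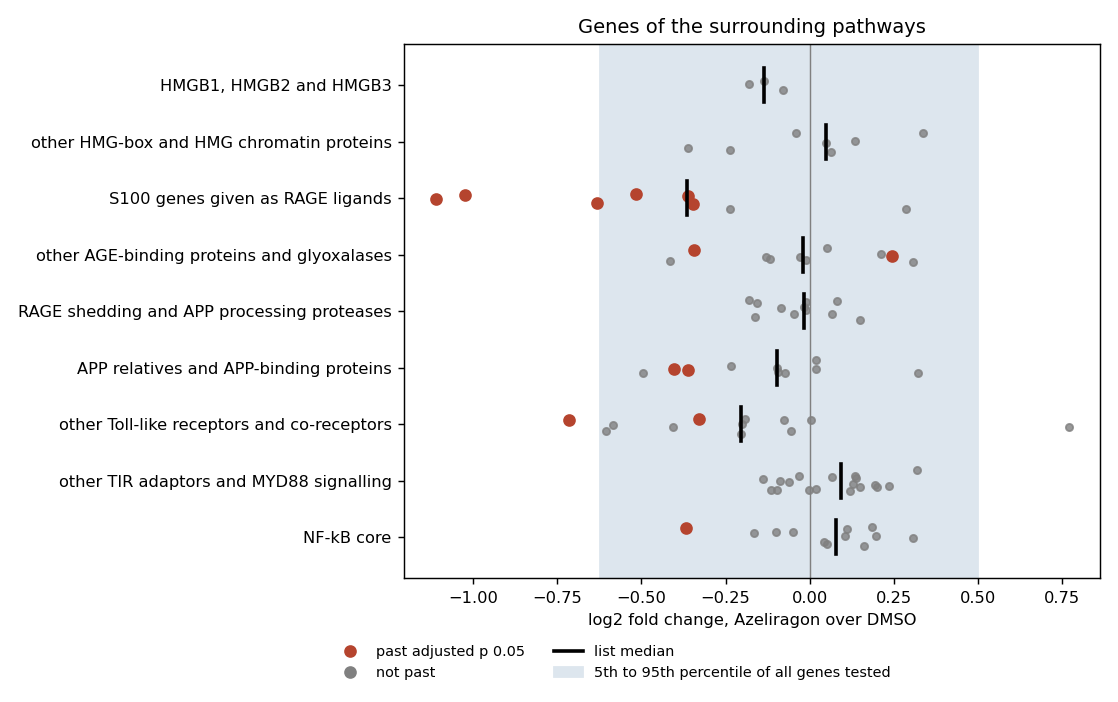
Log2 fold change of Azeliragon over DMSO (horizontal axis) for each tested gene of 9 lists, with red points for genes past an adjusted p of 0.05, black bars for list medians and a band from the 5th to the 95th percentile of all genes tested (-0.622 to 0.502). Red points are most frequent among the S100 genes, and no HMGB gene is red.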

How the data were processed

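The authors deposited raw counts per gene for 6 libraries, 3 with Azeliragon and 3 with DMSO. The submitters' processing notes name GRCh38, limma, featureCounts 1.5.0-p3 and STAR 2.6.1d with no role stated. How the counting treated strand and multi-mapping reads, and with which annotation, is not given in the sources used here. Of 58735 names, 58722 were in GENCODE 29, which gave coordinates, exon length and GC content. In the test, 1741 entries that shared a name were kept apart, and 2 with a number for a name (0% of counts) were left out.

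Genes were kept with filterByExpr, scaled by TMM and tested with glmQLFit and glmQLFTest of edgeR 4.0.16 (R 4.3.3), with treatment as the only term. Standard errors were taken from the F statistic. Alternatives were RLE factors, library totals, no filter, a stricter filter (1 CPM in 3 libraries), DESeq2 1.42.0, limma 3.58.1 (voom), the library letter as a block, splines that removed the trend of log2 CPM on GC content and length in each library, and each library left out. Combining the splines with the omission of DMSO a was chosen after seeing the data. The procedure was tested on simulated data that gave both groups the same spread. In the real libraries the biological coefficient of variation was 5.64% with Azeliragon and 12.5% in DMSO, a difference the simulation did not cover. Every pair of libraries within a condition differed by more than sampling noise (chi-square per degree of freedom at least 4.60), so none was counted as a copy.

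The genes of the set and the lists were chosen with earlier results of these data known. By rule, the text names all 10 genes of the set. From each list it names up to 4 called genes with the smallest p and up to 2 of the most abundant that were not called. It also names the 3 genes most correlated with AGER. The result of 1 further list is not reported here. Promoter sequences are from RefSeq (GRCh38.p14), which held 8 of the 10 genes.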

Additional observations from a re-analysis of the deposited data

How the results depend on the processing

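Of the 10 genes, 6 were lower with Azeliragon and 2 higher under the main setting and all 16 others in which they were tested, and TIRAP and TLR4 changed sign. TLR2 fell below the stricter filter. The number of the 10 called was 0 in the main fit and ranged from 0 to 4 with 1 library left out. It was 5 with the GC and length trend removed and DMSO a left out, where HMGB3 (-0.14) joined HMGB1, HMGB2, DIAPH1 and APP. With that setting 3832 of all genes were called, where the main fit called 1009. The count over all genes ranged from 445 to 3916 with 1 library left out, was 1685 without a filter on low counts, and was 1667 with the GC and length trend removed. Without a filter 29132 genes were tested and 5.78% of them called, against 16081 and 6.27% in the main fit. The cause of the differences between these counts was not tested. The labels do not say whether a letter pairs libraries. The deviations of same-lettered libraries correlated at 0.0341, 0.0349 and -0.0977, and those of other pairs at -0.143 to 0.129. With 3 libraries per group these values cannot decide whether the letters pair them. With a replicate block 908 genes and 0 of the 10 were called, and with the block and the GC and length trend removed 1611 and 0. Of the called genes named from the pathway lists, SCARB1 and APLP1 alone were no longer past the threshold with the block (edgeR adjusted p = 0.0706 and 0.0617). TIRAP ranged from -0.255 to 0.0420 with 1 library left out and was 0.10 with the trend removed and DMSO a left out. TLR4 ranged from -0.000932 to 0.0547 with 1 library left out. It was -0.0897 with the trend removed, -0.0881 with the block added and -0.16 with DMSO a left out as well. Depth limited TLR2, at 16 to 32 reads per library, and MMP9.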
